A study of Mus musculus with 14 samples.

Results

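The regions described here are the 95 places in an NKX2.2 binding comparison whose nearest protein-coding gene belongs to the cAMP and G-protein signalling machinery. They were taken from a table of 6758 regions by gene symbol. A region was kept when the symbol of its nearest gene began with Adcy, Pde, Prkac, Prkar, Gna, Gnb, Gng, Rgs, Akap or Creb and went on with a digit or a letter. The rule used gene names and positions and none of the measured values, though it was set with earlier results of these data known. The 95 regions lay nearest to 43 of the 128 genes that the rule covers.

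NKX2.2, a homeodomain transcription factor of the endocrine pancreas, was immunoprecipitated from alphaTC6 cells, a mouse tumour line of glucagon-producing alpha cells, and the bound DNA was sequenced (ChIP-seq). One group of 3 samples had received a small interfering RNA against Klf4, a zinc-finger transcription factor, and the other group of 4 samples a scrambled control RNA; both were transfected for 48 h, and all carry the genotype label WT. Each group also has input samples, 3 and 4 respectively, which are not analysed here. The line is a single established tumour line, and no measure of the Klf4 knockdown or of alpha-cell marker expression was among the values used.

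The deposited table is the authors' own comparison with csaw, a method that counts reads in short windows, tests each window between groups and joins neighbouring windows into regions. For each region it gives a combined p-value, a false discovery rate (FDR) adjusted over all regions, and the log2 fold change of a representative window and of the best window. It holds no value for any single sample, so no replicate spread can be shown and the depth is unknown. The deposited p-values and the FDR made from them are the only measures of whether a region differed beyond the variation between samples. Regions are called by the FDR. The numerator of the fold change is not named in the deposited table. Values above 0 are therefore called up and values below 0 down, as listed, with no statement on which condition had more binding.

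Cyclic AMP carries the signal of many hormones. Receptors act through heterotrimeric G proteins: alpha subunits of the Gs class switch adenylyl cyclases on, those of the Gi/o class switch them off, and the beta and gamma subunits signal as a pair. RGS proteins end the signal by speeding GTP hydrolysis, phosphodiesterases (PDEs) break the nucleotide down, and the main outputs are protein kinase A, placed in the cell by anchoring proteins (AKAPs), and transcription factors of the CREB family. In alpha cells, adrenaline and other hormones that raise cAMP promote glucagon secretion, and somatostatin, acting through Gi/o, restrains it.

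Of the 95 regions, 7 touched the window from 250 bases before to 50 bases after a listed transcription start of their own gene, among the 34 genes that have a start in the RefSeq table. The 250 bases before the start are printed for the 4 of these with the smallest combined p-values. Sequence was at hand for promoters only, and at Pde1c, Crebrf and Creb1 the printed bases extend beyond the member region. At all 4 genes the listed start lies inside the gene bounds. It is close to a gene end at Gnb2, Crebrf and Creb1, whereas the Pde1c region lies 290 kb from one. Capitals mark the letters AAGTG (the core bound by NKX2 homeodomains), GGGTG (the core of KLF sites) and TGACG (the core of the cAMP response element). Each was searched on both strands, so that a capital stretch may also be the reverse complement of one of these.
Pde1c (GRCm38.p6, chr6:56362811-56363060, minus strand): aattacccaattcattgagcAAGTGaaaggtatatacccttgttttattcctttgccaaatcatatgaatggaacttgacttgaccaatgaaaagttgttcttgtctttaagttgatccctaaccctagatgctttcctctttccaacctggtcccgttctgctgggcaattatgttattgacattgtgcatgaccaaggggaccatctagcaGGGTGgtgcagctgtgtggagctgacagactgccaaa
Gnb2 (GRCm38.p6, chr5:137533307-137533556, minus strand): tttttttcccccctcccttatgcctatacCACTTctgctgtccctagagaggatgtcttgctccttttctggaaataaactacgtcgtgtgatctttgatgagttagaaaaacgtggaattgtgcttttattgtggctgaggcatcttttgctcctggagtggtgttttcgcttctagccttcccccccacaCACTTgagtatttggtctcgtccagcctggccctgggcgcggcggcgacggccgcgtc
Crebrf (GRCm38.p6, chr17:26715400-26715649, plus strand): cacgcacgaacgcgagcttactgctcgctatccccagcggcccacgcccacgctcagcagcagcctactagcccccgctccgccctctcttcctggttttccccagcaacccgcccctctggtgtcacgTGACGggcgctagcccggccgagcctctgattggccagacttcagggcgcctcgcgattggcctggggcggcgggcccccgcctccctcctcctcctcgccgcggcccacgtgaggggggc
Creb1 (GRCm38.p6, chr1:64532554-64532803, plus strand): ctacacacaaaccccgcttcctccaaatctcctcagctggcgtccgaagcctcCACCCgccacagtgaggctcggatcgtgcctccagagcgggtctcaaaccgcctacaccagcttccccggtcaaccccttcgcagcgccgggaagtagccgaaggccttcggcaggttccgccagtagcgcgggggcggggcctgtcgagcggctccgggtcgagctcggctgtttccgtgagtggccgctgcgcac

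The 4 stretches differed in which letters they held. AAGTG was found 2 times before Gnb2 and 1 time before Pde1c. GGGTG occurred 1 time each before Pde1c and Creb1, and TGACG 1 time before Crebrf. Among the 32851 listed promoters, 40.7% held AAGTG, 52.0% GGGTG and 17.8% TGACG in the same 250 bases. The longer TNAAGTGG, which contains AAGTG, and the full element TGACGTCA, which contains TGACG on both strands, were in none of the 4, against 2.74% and 1.55% of all promoters. The gapped GGGNGTG was found 1 time, before Crebrf, and in 26.1% of all promoters. A match of this length is a description of the letters and not a binding site. The region at Gnb2 covered all 250 bases, that at Crebrf the 99 nearest the start, that at Creb1 the 53 nearest and that at Pde1c the 50 nearest. The AAGTG matches before Gnb2 and the GGGTG before Pde1c thus lay inside the member regions. The AAGTG before Pde1c, the TGACG and GGGNGTG before Crebrf and the GGGTG before Creb1 lay outside them. GC content was 72.0% before Crebrf and 67.6% before Creb1, 51.6% before Gnb2 and 42.8% before Pde1c, against a median of 52.4% over all listed promoters.

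A single member region passed the threshold. At an FDR of 0.05, 1 of the 95 regions, or 1.05%, was called, against 92 of 6758, or 1.36%, in the whole authors' deposited table; of all regions, 0.769% were called and listed up and 0.592% called and listed down, and the called member was up. The share of members called was thus close to the background. The same 1 region was the count at an FDR of 0.1 and by the best-window FDR at 0.05, where 2.31% and 1.2% of all regions were called, and no member passed an FDR of 0.01, against 0.592%. An unadjusted p-value under 0.05 was deposited for 3 of the 95, or 3.16%, against 11.2% of all regions. These were regions at Rgs4, Gnao1 and Pde3a, all with positive log2 fold changes. The same 3 were the only members with any window counted as up in the deposited table, 3.16% against 7.55% of all regions. No member had a window counted as down, against 3.71%. These window counts and the combined p-values come from the same window tests, so they are not separate support. A region can be listed up without such a window.

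**Figure D1:**
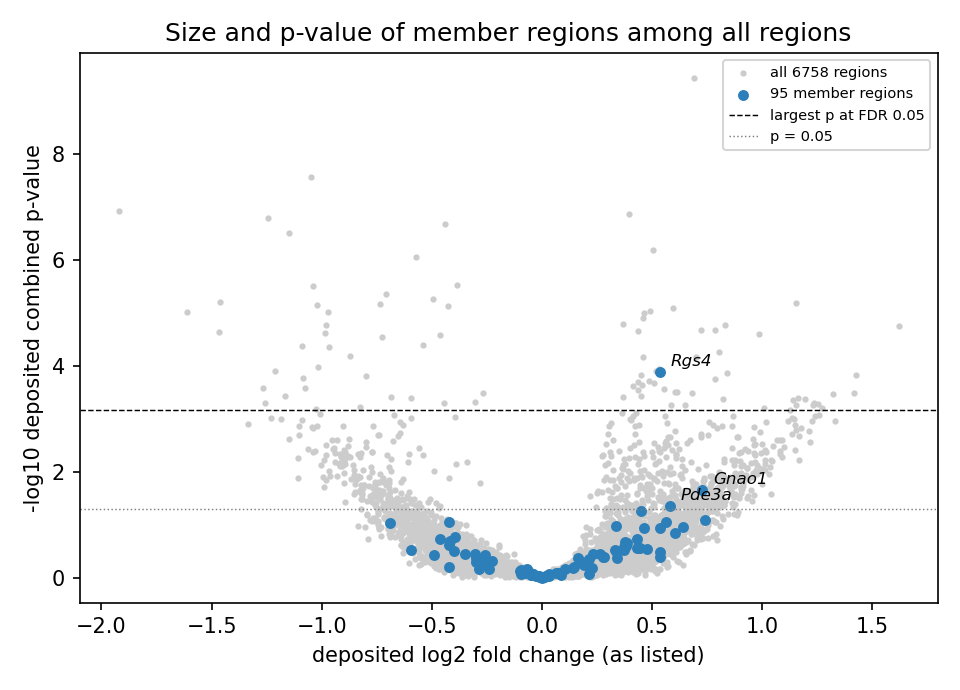
Deposited log2 fold change (x axis, as listed) against -log10 of the deposited combined p-value (y axis) for all 6758 regions (grey) and the 95 member regions (blue). The Rgs4 region lies above the dashed line, the largest p-value at an FDR of 0.05; those at Gnao1 and Pde3a lie between it and the dotted line at 0.05.

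Across the members, deposited log2 fold changes were small. Their median was 0.02, with quartiles of -0.09 and 0.34 and a range from -0.69 at Rgs8 to 0.74 at Pde4b, compared with a median of 0.04, quartiles of -0.18 and 0.34 and a range from -1.92 to 1.62 over all regions. An absolute value above 0.5 was listed for 12 of the 95, or 12.6%, against 21.4% of all regions. Of these 12 regions, 10 were up and 2 down. Of all members, 52 were positive and 43, or 45.3%, negative, against 43.2% negative over the whole table. The direction column of the deposited table named 44 members up, 22 down and 29 mixed. Mixed regions, listed with no single direction, made up 30.5% of the members and 19.4% of all regions. No test was made of these shares.

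**Figure D2:**
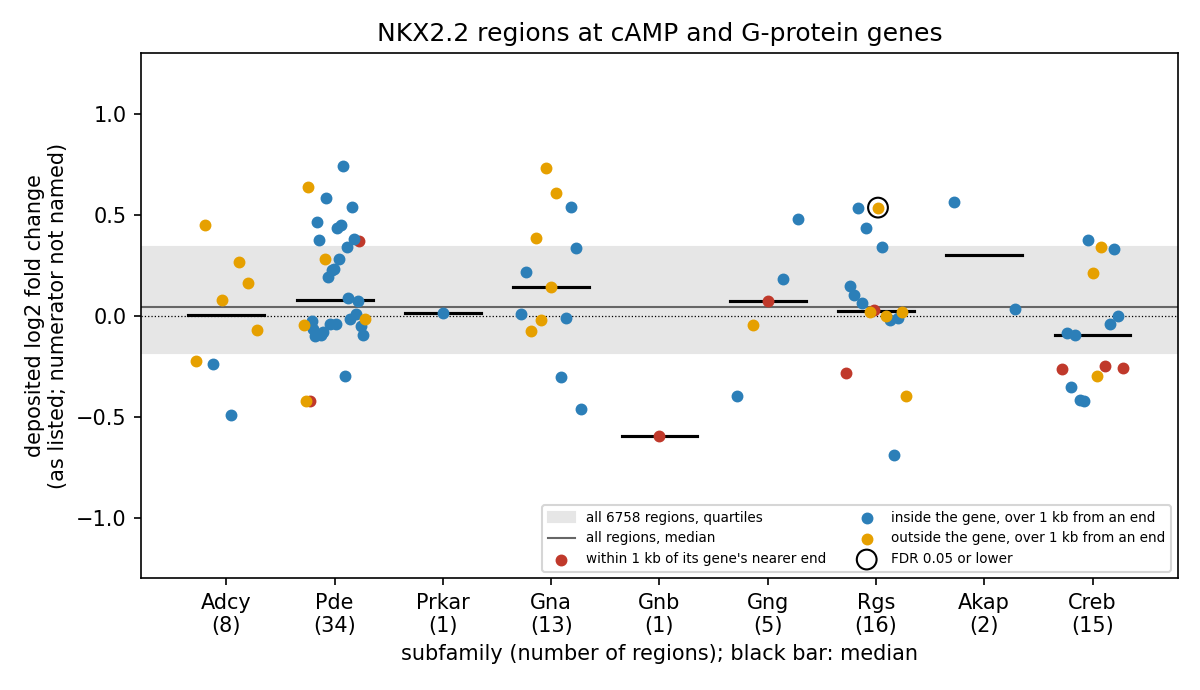
Deposited log2 fold change (y axis, as listed) of each of the 95 member regions by the start of the gene symbol (x axis, number of regions in brackets), coloured by place relative to the gene; black bars are medians, the grey band the quartiles of all 6758 regions. The ringed Rgs4 region is the one at an FDR of 0.05 or lower; Creb is the one group of more than 1 region with a negative median.

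How the family was covered varied by subfamily. At least 1 region lay nearest to 33.6% of the 128 genes, against 20.8% of all 21887 protein-coding genes. The Creb (6 of 11) and Gna (8 of 16) genes were covered most often, followed by Adcy (5 of 12), Pde (9 of 26), Gng (4 of 12), Rgs (7 of 24), Prkar (1 of 4), Gnb (1 of 6) and Akap (2 of 15). Neither gene for a catalytic subunit of protein kinase A in the table, Prkaca or Prkacb, was nearest to a region. Covered genes were long, with a median length of 133 kb, against 38.6 kb for the 85 rule genes without a region and 34.2 kb for all genes with one.

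The regions lay mostly inside genes and away from their ends. Of the 95, 66 overlapped the gene, or 69.5%, against 56.1% of the 6726 regions on assembled chromosomes. Only 9, or 9.47%, had their midpoint within 1 kb of either end of the gene, against 26% of those 6726. A further 60 lay inside the gene but farther from its ends, and 26 outside it and farther than 1 kb, of which 6 were more than 100 kb away. Member regions held a median of 4 windows and were 160 bp wide in the median, against 3 windows and 110 bp over all regions. The widest spanned 1060 bp, and all lay beyond the first 3.5 Mb of their chromosome.

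Among the 9 regions at gene ends, 6 were negative, and their median deposited log2 fold change was -0.26. Over all 1752 regions at gene ends the median was -0.05, with 58.5% negative. The 6 negative ones lay at Gnb2 (-0.60), Pde10a (-0.42), Rgs16 (-0.29), Creb1 (-0.26), Crebrf (-0.26) and Crebl2 (-0.25) in the deposited table. The 3 positive ones lay at Pde6c (0.37), Gng4 (0.07) and Rgs4 (0.03). None of the 9 passed an FDR of 0.05, where the smallest deposited value was 0.772; of all 1752 regions at gene ends 6, or 0.342%, did, so that a count of 0 among 9 is near that background. Inside genes and away from the ends, the members' median was 0.02, against 0.09 over all 2648 such regions, and outside genes it was 0.05, against 0.11 over 2326.

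**Figure D3:**
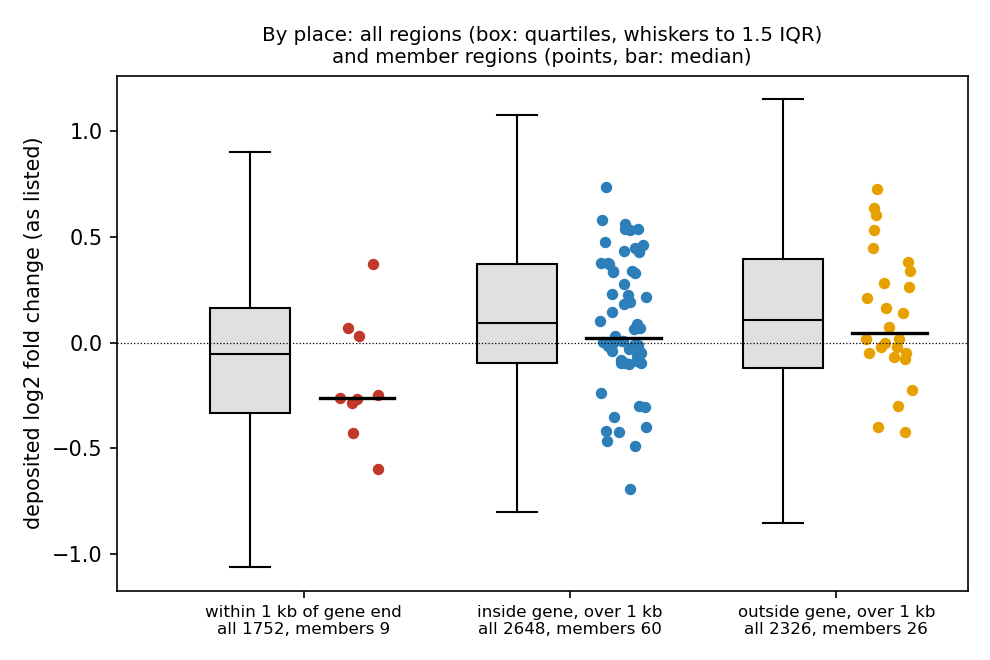
Deposited log2 fold change (y axis, as listed) by place relative to the nearest protein-coding gene (x axis), for all regions on assembled chromosomes (grey boxes, quartiles) and for member regions (points, bar at the median). The member medians are -0.26 at gene ends, 0.02 inside and 0.05 outside genes.

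G-protein alpha subunits had 13 regions, 8 positive and 5 negative, with a median deposited log2 fold change of 0.14. Gnao1, which encodes the alpha subunit of Go, the abundant inhibitory G protein of neurons and endocrine cells, had 4. The largest of its changes, 0.73, was that of a 310 bp region on chromosome 8 from 93675351 to 93675660, 134 kb upstream of the gene bounds; its deposited p-value was 0.0225 and its FDR 0.311, and the up windows numbered 2 of 7. The next regions toward the gene, 120 kb and 96.5 kb upstream, had deposited values of 0.14 (a single window) and 0.61 (deposited p-value 0.143, FDR 0.658). The fourth region, inside the gene and 34.5 kb downstream of its listed start, was listed at -0.30 (deposited p-value 0.359). The 3 upstream regions were thus positive and the intragenic one negative, and none passed the threshold.

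Other members of the inhibitory class were Gnaz and Gnai2. Gnaz encodes Gz, which resists pertussis toxin, and its 2 regions, 4.86 kb apart from outer edge to outer edge, had deposited log2 fold changes of opposite sign, 0.34 (deposited p-value 0.106) and -0.46 (deposited p-value 0.191). Both lie within the bounds of Rsph14 as well as Gnaz, so that their assignment is shared. At Gnai2, a region 1.86 kb outside the gene was listed at -0.08.

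Stimulatory subunits were represented by Gnas, the ubiquitous Gs alpha subunit, and Gnal, its counterpart in olfactory neurons. The single window inside Gnas was deposited at 0.54 (deposited p-value 0.114, FDR 0.620). The 2 regions nearest to Gnal lay 109 kb and 68.9 kb from the gene and were deposited at 0.38 and -0.02. Gnaq and Gna14, which activate phospholipase C, had 1 intragenic region each, at -0.01 and 0.22, and Gna12, of the G12 class, 1 at 0.01.

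The beta and gamma subunits had 6 regions together. The 1 beta subunit region, at Gnb2, covers the gene's start on chromosome 5 from 137533201 to 137533610, the stretch printed above. With 9 windows and a deposited log2 fold change of -0.60 it was the second lowest of all member regions, yet its p-value was 0.306 and its FDR 0.826. Among the gamma subunits, Gng7 was highest, with an intragenic region at 0.48 (deposited p-value 0.283), and Gng12 lowest, at -0.40 (deposited p-value 0.171, FDR 0.704). Gng4 had 2 regions, 1 just upstream of its start at 0.07 and 1 in the gene at 0.18, and Gng2 a single window 9.38 kb away at -0.05. The smallest deposited FDR among the gamma subunits was the 0.704 of Gng12.

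The 4 adenylyl cyclase genes with a region had 6 regions, 3 positive and 3 negative, with a median deposited log2 fold change of -0.07; 2 of the 6 overlapped their gene and none lay at a gene end. Adcy1, a cyclase stimulated by calcium and calmodulin, had 3. The smallest deposited p-value at a cyclase gene, 0.0547 (FDR 0.468), belonged to its 5-window region 65.0 kb upstream, at 0.45. A single window farther upstream and an intragenic region were listed at -0.23 and -0.24. Adcy5, a cyclase inhibited by calcium, had the lowest value, -0.49, in an intragenic region (deposited p-value 0.373). Regions near Adcy9 and Adcy2, 10.4 kb and 184 kb from their genes, stood at 0.26 and 0.08 in the deposited table. The symbol rule also brought in Adcyap1r1, the receptor for the neuropeptide PACAP, whose 2 regions upstream of the gene had deposited values of 0.16 and -0.07; with them, the 8 regions at symbols beginning with Adcy had a median of 0.00.

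Phosphodiesterase genes held the largest share, with 33 regions at 8 genes and a median deposited log2 fold change of 0.09; 18 were positive and 15 negative. Pde3a, which encodes a PDE that hydrolyses cAMP and is inhibited by cGMP, alone had 10, a number reached by 6 of the 4542 genes with a region. They spread over 211 kb of chromosome 6, with 9 inside the 258 kb gene and 1 lying 4.81 kb outside. From the lower to the higher coordinate, their deposited log2 fold changes were 0.28, 0.58, 0.19, -0.04, 0.22, 0.23, -0.04, 0.43, 0.28 and 0.45. Of the 10, 8 were positive, with a median of 0.25, and both negative values were within 0.05 of 0. The region at 0.58, from 141293551 to 141293710, had the smallest p-value, 0.0443, at an FDR of 0.419, with 2 of its 4 windows counted as up. Neighbouring regions of one gene are not independent, and none of the 10 passed the threshold. The region from 141381051 to 141381760 had 15 windows, the most of any member; its representative window was at -0.04 and its best window at 0.21.

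Pde4d and Pde10a were the next most covered. Pde4d encodes a cAMP-specific PDE, and its 7 regions all lay inside its 1302 kb bounds. In order of coordinate they were deposited at -0.30, 0.34, 0.09, -0.01, 0.54, 0.38 and 0.01, with p-values of 0.251 or higher. Pde10a, a PDE for both cyclic nucleotides, had 6 regions, of which 5 were negative in the deposited table. Those at 18.8 kb and 16.6 kb outside its lower-coordinate end had opposite values, -0.42 (deposited p-value 0.0891) and 0.64 (deposited p-value 0.112), although they are neighbours. The region at that end itself was deposited at -0.42 (deposited p-value 0.239), though it lay 276 kb upstream of the nearest listed start of the gene. The remaining 3 were at -0.05, -0.03 and -0.06, and the one at -0.03 lay 2.2 kb upstream of a listed start.

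The other PDE genes had 1 to 3 regions each. Pde4b, a further cAMP-specific PDE, had the highest value of all members, 0.74, in a 3-window intragenic region whose deposited p-value was 0.0802 (FDR 0.537). Of all 6758 regions, its rank by log2 fold change was 243. Pde11a, a PDE for both cyclic nucleotides, was deposited at 0.46 (deposited p-value 0.114) and -0.10. The latter region held only 3 of its 22 window positions. Pde1c, a PDE activated by calcium and calmodulin, had 3 regions, at 0.38 at the internal start printed above (deposited p-value 0.210), -0.09 and -0.08. Pde7b, a cAMP-specific PDE, had 2 regions at -0.10 and -0.02, and Pde6c, the PDE of cone photoreceptors, 2 at 0.37 and -0.05. The symbol rule also brought in Pde4dip, an anchoring protein that binds PDE4 and is not itself a phosphodiesterase, with 1 region at 0.07.

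**Figure D4:**
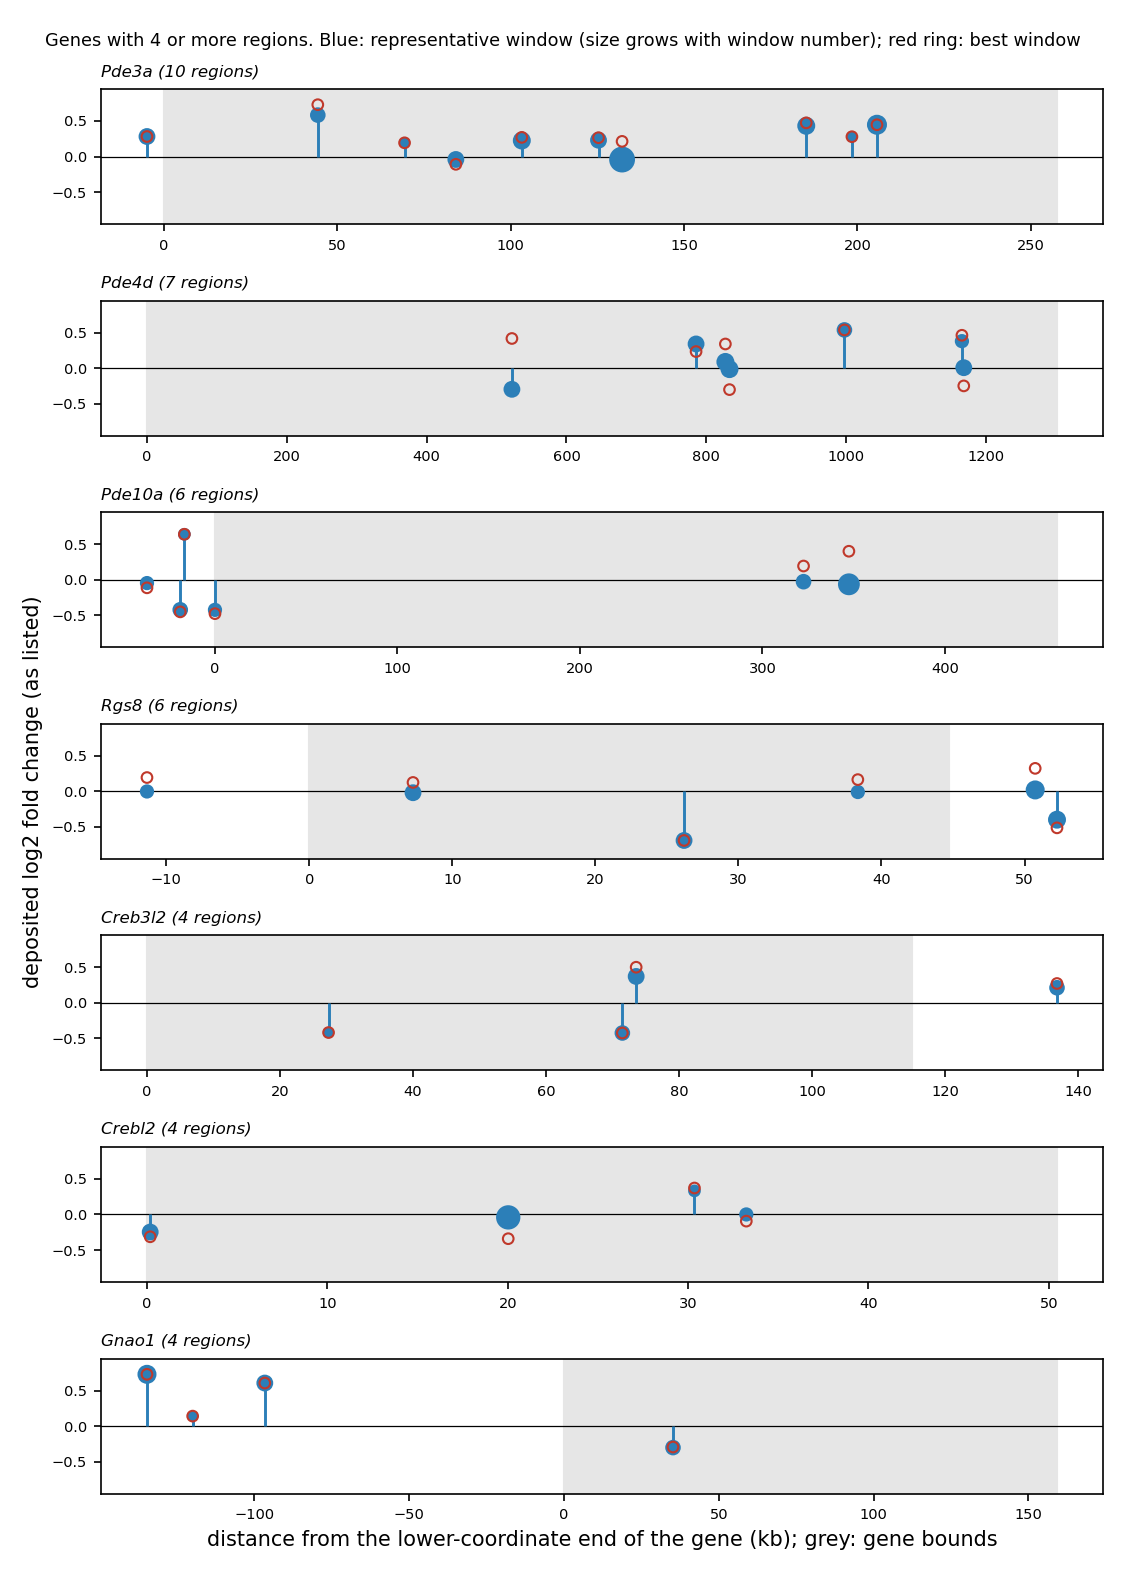
Deposited log2 fold change (y axis, as listed) of every region at the 7 member genes with 4 or more, by distance in kb from the lower-coordinate end of the gene (x axis; grey marks the gene). Blue points are representative windows, larger with more windows, and red rings best windows. At Pde3a 8 of 10 blue points lie above 0, at Pde10a and Rgs8 5 of 6 below it. Several of those below 0 at Pde10a and Rgs8 lie close to it, and some have a best window above 0.

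RGS genes had 16 regions at 7 genes, 10 positive and 6 negative, with a median deposited log2 fold change of 0.02. Rgs4, which encodes an RGS protein for Gi/o and Gq subunits, was nearest to the called region. This lies on chromosome 1 from 169819501 to 169819810, 310 bp wide, outside any protein-coding gene and 71.9 kb upstream of Rgs4. In the authors' deposited table it was listed as up with a log2 fold change of 0.53 and a p-value of 0.000132, rank 48 of 6758; the FDR was 0.0185. Of its 7 windows, 4 were counted as up and none as down, and its best-window FDR was 0.0198. By log2 fold change its rank was 759, and 8 other member regions with higher values did not pass: 2 at Gnao1 and 1 each at Akap3, Gnas, Pde10a, Pde3a, Pde4b and Pde4d.

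The link between this region and Rgs4 is one of distance alone. The next protein-coding gene, Ccdc190, lies 109 kb away on the other side, and Rgs5, another RGS gene, 124 kb away beyond Rgs4. With noncoding genes included, the nearest was the small nuclear RNA gene Gm22114 at 19.9 kb. The region at the Rgs4 start itself, 88.5 bp upstream in its midpoint, was deposited at 0.03 with a p-value of 0.928. The neighbour on the far side, 28.9 kb along and nearest to Ccdc190, was at 0.58 (deposited p-value 0.162, FDR 0.688). A called difference was thus listed at 1 of the 2 regions nearest to Rgs4, and not at its start.

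Rgs8 and Rgs16 are neighbours on chromosome 1, and both have been described in developing endocrine pancreas. Rgs8 had 6 regions over 63.8 kb, of which 3 overlapped its 44.7 kb bounds. In order of coordinate they stood at 0.00, -0.02, -0.69, -0.01, 0.02 and -0.40 in the deposited table, the first of these being just below 0. Its region from 153679051 to 153679260 was the lowest of all members, at a p-value of 0.0923 (FDR 0.575). The other low one, outside the gene at -0.40, had a p-value of 0.321, and the remaining 4 ran from -0.02 to 0.02. Rgs16 had 1 region of 2 windows at its start, deposited at -0.29 (deposited p-value 0.699).

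The remaining RGS regions were all positive. Rgs3 had 3, at 0.06, 0.43 (deposited p-value 0.191) and 0.02 in the deposited table. Rgs22 had 2, at 0.10 and 0.53 (deposited p-value 0.403), Rgs7, whose protein works with a dedicated beta subunit, 1 at 0.34 (deposited p-value 0.433), and Rgs20, which acts on Gz, 1 at 0.15.

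Downstream of cAMP, protein kinase A was thinly represented. By the nearest-gene rule its 1 region lay inside Prkar1b, a regulatory subunit gene. It was deposited at a log2 fold change of 0.01 (deposited p-value 0.970). A region that also overlapped Prkar1b, 0.55 kb from its end, was assigned to Dnaaf5 and deposited at -0.49 (deposited p-value 0.198). Another, 5.46 kb from an end of Prkar2a and assigned to Slc25a20, was at 0.18 (deposited p-value 0.558). Of the anchoring proteins, Akap3, known from the sperm tail, had an intragenic region at 0.56 (deposited p-value 0.0893, FDR 0.563) and Akap6, of the nuclear envelope, 1 at 0.03.

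The CREB-related genes had 15 regions at 6 genes, with a median deposited log2 fold change of -0.10; 10 were negative and 5 positive. All 3 regions of Creb1, which encodes CREB itself, were negative, at -0.26 over the start, -0.09 and -0.35, and their best windows were at -0.39, -0.25 and -0.54. Their smallest deposited p-value was 0.365, at an FDR of 0.871. Crebrf, whose product binds CREB3, had 1 region over its start at -0.26 (deposited p-value 0.377); only 3 of the 17 window positions across its 810 bp were in the table. Crebl2, a small bZIP protein related to CREB, had 4 regions, at -0.25 over one end of the gene, -0.04, 0.33 and 0.00, none with a p-value under 0.304. The first and second of these held 5 of 11 and 13 of 21 window positions.

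Members of the CREB3 group, which reside in the endoplasmic reticulum membrane and are cut before they enter the nucleus, showed both signs. Creb3l2 had regions at -0.42, -0.42, 0.37 and 0.21 in the deposited table. The first was a single window, and the second held only 4 of its 22 window positions. The smallest Creb3l2 p-value, 0.201, belonged to the single window. It was also the smallest among all CREB-related regions, at an FDR of 0.729. Creb3l1 had 1 at -0.10. Creb5, which forms dimers with other bZIP factors, had 2 regions outside the gene at -0.30 and 0.34. No CREB-related region had an absolute value above 0.5.

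Genes with many regions held both signs. In all, 7 genes had 4 or more regions, or 16.3% of the member genes, against 4.87% of all genes with a region. Together they held 41 of the 95, or 43.2%. Each of the 7 had regions of both signs, though some lay close to 0. The only positive value at Rgs8 was 0.02, and the negative values at Pde3a were both -0.04. Within regions, too, windows differed: in 18 of the 95, or 18.9%, the representative and the best window had opposite signs, against 13.0% of all regions. The widest of these gaps was at Pde4d, where the region listed at -0.30 had its best window at 0.42. With best windows, the median over the members was 0.18, against 0.15 over all regions.

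Other genes of the pathway, outside the symbol rule, were examined as a list of receptors, cAMP effectors, kinase inhibitors, CREB partners and regulators of the G-protein cycle. The list was written with earlier results of these data known. Of its 70 genes in the gene table, 28 were nearest to at least 1 region, and none of their 51 regions passed an FDR of 0.05 in the authors' csaw comparison, against 1.36% of all regions. An unadjusted p-value under 0.05 was deposited for 3, or 5.88%, against 11.2% of all regions. Their median deposited log2 fold change was 0.10, with 31 positive and 20 negative.

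The lowest p-value of the list, 0.00645, was at Crtc2, which encodes a cAMP-regulated coactivator of CREB. Its 4-window region on chromosome 3 from 90254151 to 90254310, 372 bp from a gene end, was deposited at -0.94 with an FDR of 0.164. Pkig, an inhibitor of protein kinase A, followed with an intragenic region at 0.88 (deposited p-value 0.0115, FDR 0.225). The third was a region 98.3 kb from Ptger3, a Gi-coupled prostaglandin receptor, deposited at 0.42 (deposited p-value 0.0418, FDR 0.410). In the other classes the smallest deposited p-values were 0.105 at Gpsm1, 0.127 at Rapgef4, which encodes the cAMP-activated exchange factor EPAC2, 0.336 at Adra1b, 0.362 at Gpr119 and 0.531 at Plcb1. The glucagon receptor gene Gcgr had 1 region at -0.36 (deposited p-value 0.667).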

How the data were processed

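NKX2.2 ChIP-seq of alphaTC6 cells was compared between 3 Klf4-knockdown and 4 scramble samples, grouped by their titles. A single table was used; it names no sample. Per the series' design text the authors made it with csaw, and the submitters' processing notes name build mm10, Bowtie2, MACS2 and FastQC, without roles; window filter, normalization and any use of input are not given in the sources used here. The log2 fold changes, the p-values and the FDR (q-values) were deposited by the authors; the FDR equals a Benjamini-Hochberg adjustment over all 6758 regions. Depth per sample is unknown, so no interval or detection limit was computed.

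Each region was assigned to the nearest protein-coding gene of the RefSeq table of GRCm38.p6, which mm10 corresponds to (distance 0 if overlapping, ties to the closer gene end). This was possible for 6726 regions; 32 lay off the assembled chromosomes. Place was taken from the region's midpoint to the nearer end of that gene. Promoter sequences are RefSeq's. The gene table gives bounds only, so exons and introns could not be separated. Descriptions are counts and medians beside the same over all regions, with no test of members as a set. Values in full follow a rule (called regions; smallest p, highest and lowest value per subfamily; genes with 4 or more regions; small subfamilies; most windows; nearest ends; smallest p per pathway class). All other members are named so that each is accounted for, which was decided with their values seen. Members and lists were chosen with earlier results of these data known. The planned count test was not run, since the table holds no counts per library. Assignment and adjustment functions were tested on simulated data. Alternatives covered thresholds, assignment rules, window filters and the best window. The work was done in Python 3.11.15 with matplotlib 3.10.9, scipy 1.17.1, pandas 2.3.3 and numpy 2.4.6.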

Additional observations from a re-analysis of the deposited data

How the results depend on the processing

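No paired analysis was possible because values per library, and with them replicate numbers, are absent from the table used; for the same reason leaving out replicates, another normalization, DESeq2 and a low-count filter were not run. The 1 called member region, at Rgs4, was the count under 5 of the 11 alternatives; it became 0 at an FDR of 0.01, and 0 with only regions overlapping the gene, with only those inside or within 10 kb and with any member gene within 10 kb, because the region lies 71.9 kb from Rgs4. It was also 0 with noncoding genes in the assignment, where Gm22114, at 19.9 kb, is nearest. An unadjusted p under 0.05 gave 3. The median log2 fold change, 0.02, moved to 0.18 with best windows and the negative share from 45.3% to 32.6%; under the other 7 alternatives the median ran from -0.01 to 0.02 and the share from 43.5% to 51.7%. The share within 1 kb of a gene end, 9.47%, ran from 8.05% to 12% over its 9 alternatives. No region of the pathway list was called at an FDR of 0.01 or 0.1 or with best windows. Of the 55 regions chosen by the rule, 9 had a best window of the other sign: Crebl2 -0.094, Pde10a 0.19 and 0.40, Pde3a 0.21, Pde4d 0.42 and -0.25, and Rgs8 0.19, 0.12 and 0.16; the cause was not tested. Since depth is unknown, a region not called may have differed by less than these libraries could show.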

Other observations

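Assigning each region to 1 gene left out regions that lie close to or inside a member gene but were assigned to another. With any gene of the rule within 10 kb, 14 such regions were added, and none of them passed an FDR of 0.05 in the deposited table, which 1.36% of all regions did; among 14 regions a count of 0 is near that background. The added region with the smallest p-value was the one at Crtc2, 9.65 kb from the end of Creb3l4. A 4-window region 7.35 kb from Crebl2, nearest to Gpr19, was deposited at -0.60 (deposited p-value 0.0244, FDR 0.322), and 3 of its windows were counted as down. A 2-window region 5.19 kb from Pde4c, nearest to Rab3a, was at 0.76 (deposited p-value 0.0426, FDR 0.413). The catalytic subunit gene Prkaca, with no region by the nearest-gene rule, had 1 at 8.46 kb, deposited at -0.18 (deposited p-value 0.534).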
